A study of Mus musculus with 2 samples.

Results

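The genes described here are 10 imprinted genes of loci other than the Dlk1-Dio3 cluster and the Prader-Willi and Angelman region. They are Peg3, Usp29, Plagl1, Nnat, Peg10, Sgce, Impact, Inpp5f, Zdbf2 and Gnas. They were chosen by symbol, and all 10 were found among 55536 annotated genes. They were measured by total RNA sequencing of the hippocampus of female B6CASTF1/J mice aged 2 months, crosses of a C57BL/6J with a CAST/EiJ parent. The 2 libraries, each from 300 ng of RNA with ERCC spike-in RNAs added, form 1 group with no treatment or control group. The labels number them as biological replicates 1 and 2 but list a single donor record for both, so it is unclear whether they come from 2 animals or 1, and their spread may be in part technical. Replicate 1 held 29490900 expected counts on annotated genes and replicate 2 held 30691917, and the members held between 383 and 23866 counts in a library.

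An imprinted gene is read mainly from the copy inherited from a given parent, and DNA methylation of one copy at a control region, set in the germ line, tells the copies apart. Many imprinted genes are active in the brain, and several of them use different first exons that are imprinted differently. Peg3, Usp29, Plagl1, Nnat, Peg10, Sgce, Impact and Zdbf2 are known as genes read from the paternal copy. At Inpp5f only a variant that starts inside the gene is known to be imprinted in the brain, and at Gnas the imprint differs between first exons and tissues. The deposited values do not separate the parental copies, so each value below is the sum over both copies. How far differences of the CAST/EiJ copy from the genome used for counting affect these values was not tested.

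Alternative exons distinguish the main transcripts of several members, and the stretches that tell the transcripts apart are printed because the transcript shares given later turn on them. All come from the annotated coding sequence (mm10), are written 5′ to 3′ on the strand of the gene, and carry in capitals the bases that the compared transcripts do not share. At Gnas the stretch spans chr2:174334265-174341672 on the + strand. Gnas-208 holds an exon of 45 bases that Gnas-206 and Gnas-207 skip, and Gnas-207 adds 3 bases at the start of the next exon:
Gnas-208: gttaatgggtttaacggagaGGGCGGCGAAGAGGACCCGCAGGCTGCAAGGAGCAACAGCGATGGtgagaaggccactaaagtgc
Gnas-206: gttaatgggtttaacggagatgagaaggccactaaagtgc
Gnas-207: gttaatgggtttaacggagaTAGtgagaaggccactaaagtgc

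At Nnat the stretch spans chr2:157560241-157561561 on the + strand. Nnat-202 has a middle exon of 81 bases, Nnat-210 keeps only the first 27 of them, and Nnat-205 skips the exon:
Nnat-202: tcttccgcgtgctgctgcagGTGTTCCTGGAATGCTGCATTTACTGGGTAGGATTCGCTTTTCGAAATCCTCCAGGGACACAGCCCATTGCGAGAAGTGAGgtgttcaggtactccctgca
Nnat-210: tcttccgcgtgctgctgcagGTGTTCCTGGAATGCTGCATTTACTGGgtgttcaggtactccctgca
Nnat-205: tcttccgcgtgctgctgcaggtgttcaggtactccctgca

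At Sgce the stretch spans chr6:4689748-4691448 on the - strand, where Sgce-205 has an exon of 27 bases that Sgce-201 skips. All the exons shown for Gnas, Nnat and Sgce hold a whole number of codons:
Sgce-205: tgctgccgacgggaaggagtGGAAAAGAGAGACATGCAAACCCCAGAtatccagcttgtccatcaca
Sgce-201: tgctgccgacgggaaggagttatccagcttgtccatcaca

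Peg10 derives from a retrotransposon and, like a retrovirus, makes a longer protein when the ribosome slips by a base. The stretch at chr6:4755290-4755348 on the + strand is shown because the annotated reading frames part there. The capitals mark GGGAAAC, the known slippery motif, which a search of the printed strand found once in the whole Peg10-202 transcript:
Peg10-202: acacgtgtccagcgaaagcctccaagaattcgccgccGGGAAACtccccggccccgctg

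Peg3 and Usp29 start 147 bases apart and are read in opposite directions. The 146 bases between their outermost annotated starts, chr7:6730432-6730577, are printed from RefSeq (GRCm38.p6) because both genes share them as upstream sequence. The 5 CG pairs, the targets of DNA methylation, are in capitals:
Usp29 strand: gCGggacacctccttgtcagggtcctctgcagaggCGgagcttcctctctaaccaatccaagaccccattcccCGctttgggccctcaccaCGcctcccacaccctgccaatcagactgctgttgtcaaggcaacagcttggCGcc

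RefSeq promoter windows of 300 bases (250 before and 50 after a start) were at hand for 7 of the 10 members, with 11 windows in all. They held 13 to 40 CG pairs, beside a median of 7 over 32851 windows. The window at the Gnas start that makes the stimulatory G protein held 40 CG pairs, and 3.91% of all windows held as many. A Zdbf2 window held 38 (4.95% of windows), the Plagl1 window 26 (16.9%), the Nnat and Usp29 windows 17 each (31.4%) and the Peg3 window 13 (37.9%).

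All 10 members were detected, that is, at 1 TPM or more in both libraries, where TPM is the share of transcripts per length scaled to a fixed library total. Over all annotated genes 26.8% were detected, and over nuclear protein-coding genes 58.0%. The median member lay at 28.7 TPM in replicate 1 and 28.3 in replicate 2, beside medians of 3.27 and 3.24 over protein-coding genes. The members spanned a 225-fold range of mean TPM. Gnas alone held 58.0% and 60.7% of their summed TPM in replicates 1 and 2.

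**Figure D1:**
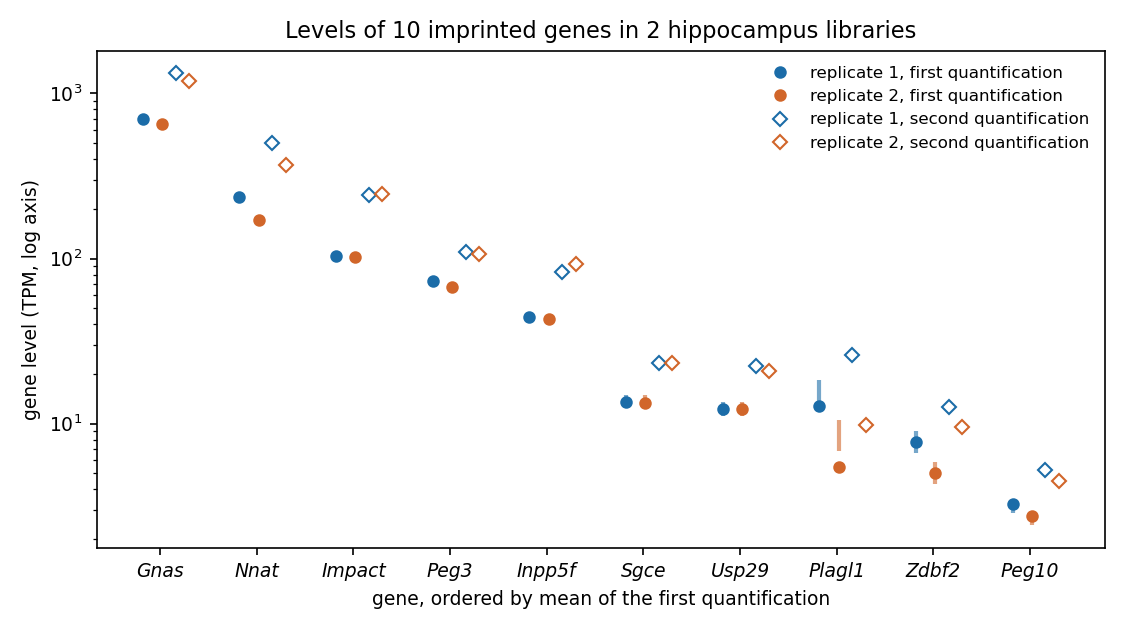
Level of each of the 10 genes in TPM (log axis), with filled points for the first quantification, open diamonds for the second and vertical lines for the authors' interval of the first. The order from Gnas to Peg10 is the same in both quantifications, and the second lies above the first for every gene.

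Gnas was the highest member. It encodes the alpha subunit of the stimulatory G protein, which couples hormone and neurotransmitter receptors to adenylyl cyclase (ENSMUSG00000027523.19, chromosome 2, 174284320 to 174346744, + strand). Its counts were 23866 and 23237 in replicates 1 and 2, and its levels 700.5 and 654 TPM, a mean of 677 ± 32.9 (SD, n = 2), with intervals that did not overlap. That mean lay above 99.9% of nuclear protein-coding genes.

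The zinc finger proteins Peg3, Plagl1 and Zdbf2 covered a wide range of levels. Peg3 (ENSMUSG00000002265.16, chromosome 7, 6703892 to 6730431, - strand), a large DNA-binding protein known for its part in maternal behaviour, had 11712 and 10847 counts. Its levels of 72.9 and 67.5 TPM gave 70.2 ± 3.82 (SD, n = 2), and the authors' intervals of the libraries overlapped. Plagl1, also called Zac1 (ENSMUSG00000019817.18, chromosome 10, 13060504 to 13131694, + strand), is a growth-restraining transcription factor. It had 780 and 383 counts and 12.7 and 5.49 TPM, 9.12 ± 5.13 (SD, n = 2), so replicate 1 was clearly the higher library. Zdbf2 (ENSMUSG00000027520.15, chromosome 1, 63273265 to 63314576, + strand), a zinc finger gene whose imprint is set from an upstream transcript in the embryo, had 1425 and 1099 counts. Its 7.77 and 5.06 TPM gave 6.42 ± 1.92 (SD, n = 2), again with replicate 1 higher.

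The membrane proteins Nnat and Sgce differed in how steady they were. Nnat, or neuronatin (ENSMUSG00000067786.16, chromosome 2, 157560078 to 157562522, + strand), is a small protein of the endoplasmic reticulum made in neurons and endocrine cells. It had 5442 and 4089 counts and 237 and 171 TPM, 204 ± 46.7 (SD, n = 2), with intervals that did not overlap. Sgce (ENSMUSG00000004631.15, chromosome 6, 4674350 to 4747207, - strand) encodes epsilon-sarcoglycan, whose loss causes myoclonus-dystonia in people. Its 507 and 529 counts and 13.5 and 13.4 TPM, 13.4 ± 0.0636 (SD, n = 2), showed almost no difference.

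The enzymes and the translation regulator among the members were steady as well in the first quantification. Usp29 (ENSMUSG00000051527.11, chromosome 7, 6730578 to 6967219, + strand), of the family of ubiquitin-specific proteases, had 1225 and 1236 counts and 12.3 and 12.4 TPM. Inpp5f (ENSMUSG00000042105.18, chromosome 7, 128611328 to 128696425, + strand), a phosphatase of inositol lipids, had 3123 and 3080 counts and 44.0 and 43.2 TPM. Impact (ENSMUSG00000024423.6, chromosome 18, 12955852 to 12992950, + strand), which restrains the stress kinase Gcn2 and so helps to keep translation going in neurons, had 5341 and 5272 counts and 104 and 102 TPM. The levels of these 3 genes and of Sgce differed by less than 2% between the libraries in the first quantification. In the second, Inpp5f was at 83.4 and 92.6 TPM, Usp29 at 22.3 and 20.8, Impact at 244 and 247 and Sgce at 23.4 and 23.4.

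Peg10 was the lowest member. The gene (ENSMUSG00000092035.8, chromosome 6, 4747306 to 4760517, + strand) makes gag- and pol-like proteins and is best known from the placenta. It had 458 and 403 counts and 3.26 and 2.75 TPM, 3.005 ± 0.361 (SD, n = 2), close to the middle of protein-coding genes (above 49.3% of them).

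From the highest mean to the lowest, the order was Gnas, Nnat, Impact, Peg3, Inpp5f, Sgce, Usp29, Plagl1, Zdbf2 and Peg10. Of the 9 neighbouring pairs in that order, the library values overlapped for 2, Usp29 with Plagl1 and Plagl1 with Zdbf2. Sgce and Usp29 had separate values but overlapping intervals. All 10 genes kept their place in the order in the second quantification, whose member means were 1.55 to 2.39 times those of the first. The median over the members of that ratio was 1.80, beside 1.71 over all genes.

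**Figure D2:**
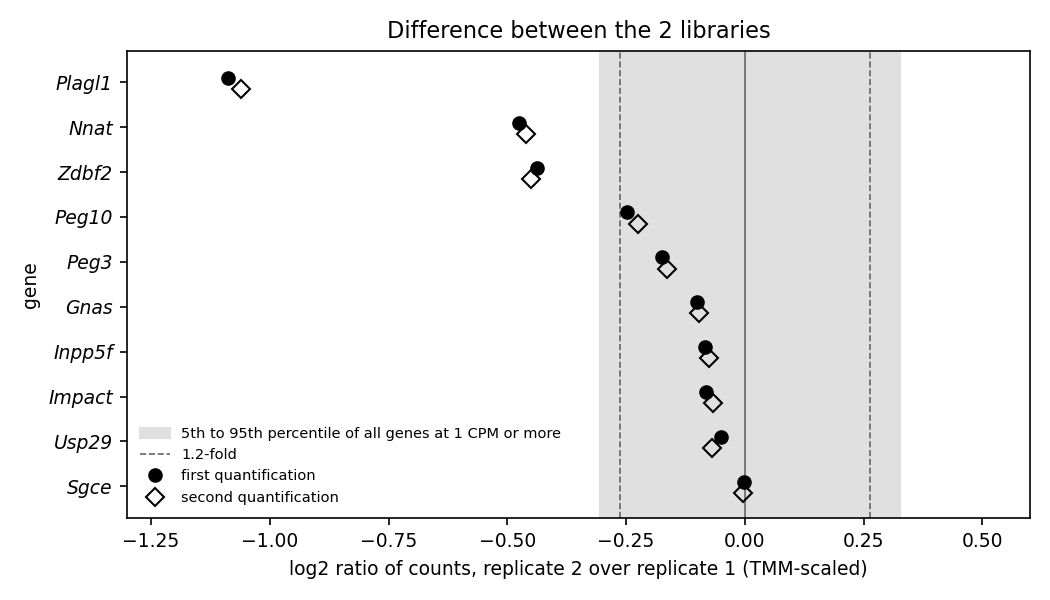
log2 ratio of counts between the libraries (replicate 2 over replicate 1, scaled by TMM) for each gene, with filled points for the first quantification and diamonds for the second. Shading covers the 5th to 95th percentile of all genes at 1 CPM or more, and dashed lines mark 1.2-fold. Plagl1, Nnat and Zdbf2 lie left of the shading.

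Plagl1, Nnat and Zdbf2 were lower in replicate 2 by 1.2-fold or more, and no member was higher by as much. Among the 15509 genes that reached 1 CPM (counts per library scaled to the same total) on average, 6.41% were lower by that measure, 7.25% higher and 13.7% either way, beside 3 of 10 members lower. Plagl1 had a log2 ratio of -1.09, 2.13-fold lower in replicate 2, a size (2-fold or more) that 0.258% of genes reached in that direction. Nnat was 1.39-fold lower (log2 ratio -0.48) and Zdbf2 1.35-fold lower (-0.44). With 1 library against 1 library these are differences between 2 libraries and carry no test.

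With this scaling all 10 log2 ratios were below 0, with a median of -0.14, while over all genes 52.3% were below 0 and the median was -0.01. Peg10 came next at -0.25, then Peg3 at -0.17 and Gnas at -0.10. Inpp5f and Impact both stood at -0.08, Usp29 at -0.05 and Sgce at -0.00. Sgce was above 0 under the other scalings, at 0.0096 with DESeq2 size factors, 0.0036 with library totals and 0.043 with spike-in totals. In the second quantification the same 3 members were lower by 1.2-fold or more, beside 6.66% of its 16717 genes, with log2 ratios of -1.06 (Plagl1), -0.46 (Nnat) and -0.45 (Zdbf2). The replicate coefficient of variation that edgeR estimated over 17782 genes that passed its expression filter was 4.86%, a value that leaves out counting noise.

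Markers of some other cell types also differed between the libraries, while those of several did not. At 1 CPM or more, none of 6 GABAergic, 4 astrocyte, 4 oligodendrocyte, 4 microglia and 2 ependymal markers was past 1.2-fold in either direction. Of 3 endothelial markers 1 was lower in replicate 2 (Cldn5). The 8 choroid plexus markers summed to 132 TPM in replicate 1 and 74.6 in replicate 2. Their main part was Ttr, the thyroxine carrier of that epithelium, at 121 and 65.7 TPM. Of the 8, 3 were detected and none was at 0 in either library. Of the 4 at 1 CPM or more, 2 were lower in replicate 2 (Ttr and Clic6). The 5 leptomeningeal fibroblast markers summed to 41.3 and 35.8 TPM, with a median log2 ratio of 0.04. In replicate 2, 2 of 5 were lower (Dcn and Slc6a13) and 1 was higher (Col1a2). Of these, Dcn, which is also one of the further imprinted genes counted below, was at 23.9 and 16.3 TPM, a difference larger than that of the sum. The 4 blood markers (Hbb-bs, Hba-a1, Hba-a2 and Alas2) summed to 328 and 583 TPM, and all 4 were higher in replicate 2. The part of these cells in the differences of Plagl1, Nnat and Zdbf2 was not tested, and fewer cells of a type and less RNA per cell cannot be told apart in bulk tissue.

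Markers of the labelled tissue were present, and so were markers of the thalamus. The 4 dentate granule cell markers summed to 136 and 152 TPM, with 1 of 4 higher in replicate 2 (Dsp). The 3 CA1 markers summed to 167 and 166 TPM, and the 3 CA3 markers to 67.9 and 62.3. The 6 hypothalamic markers, which stand for a region where several imprinted genes are high, summed to 2.69 and 2.27 TPM, with none detected and Hcrt at 0 in both libraries. The 4 thalamic markers were all detected and summed to 34.6 and 39.6 TPM. Of these 1 of 4, Prkcd, was past 1.2-fold, 1.39-fold higher in replicate 2 at 13.6 and 18.5 TPM. The log2 ratios of Rora, Tcf7l2 and Lef1 were 0.09, 0.07 and -0.05. The part of tissue from outside the hippocampus in the members' values was not tested.

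Peg3 lay above Usp29 in both libraries. The log2 ratio of their TPM was 2.56 in replicate 1 and 2.45 in replicate 2, 2.51 ± 0.08 (SD, n = 2), which is 5.68-fold. In the second quantification the mean was 2.33. Around the pair, Zim1 stood at 2.17 and 2.52 TPM, while Zim2 and Zfp264 were under 1 TPM and the antisense gene Zim3 was listed at 0 in both libraries. The pair thus stood far above the other genes listed for its domain.

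Peg10 and Sgce, whose starts are 99 bases apart and face away from each other, showed the reverse imbalance. Sgce was 4.49-fold higher per length, with log2 ratios of Peg10 to Sgce of -2.05 and -2.28, -2.17 ± 0.17 (SD, n = 2). By expected counts the log2 ratio was -0.27, since the Peg10 transcript is the longer. Nearby, the neuronal phosphatase regulator Ppp1r9a reached 65.7 ± 1.77 TPM, the dynein chain Dync1i1 54.6 ± 0.912 and the sialic acid acetyltransferase Casd1 19.6 ± 0.778 (SD, n = 2 each). Of the 10 genes listed there 5 were detected, and Calcr and Pon1 had no counts.

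Nnat lies wholly within Blcap and is read on the opposite strand. Blcap was almost equal in the libraries at 54.8 and 54.1 TPM, while Nnat was at 237 and 171 TPM. The log2 ratio of Nnat to Blcap was therefore 2.11 in replicate 1 and 1.66 in replicate 2, 1.88 ± 0.32 (SD, n = 2), or 3.69-fold. The whole span of Nnat, 2445 bases, overlaps the span of Blcap, and whether their exons overlap was not checked. No source used here states whether the values were counted by strand, so how reads from any shared exon bases were assigned is not known. Of the other genes listed there, Ctnnbl1, a splicing-related protein, stood at 12.3 ± 1.25 TPM (SD, n = 2), and Bpi had no counts.

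**Figure D3:**
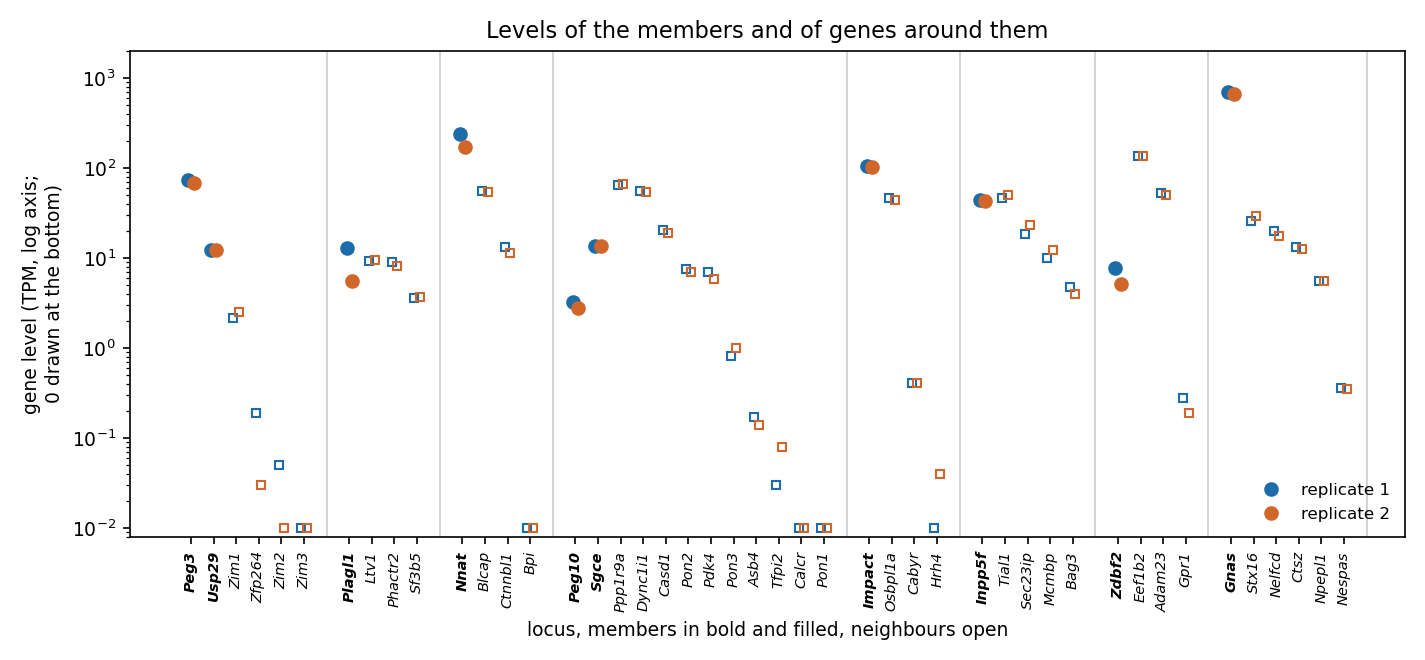
Levels in TPM (log axis) of the 10 members (filled points, bold names) and of 35 genes around them (open squares), by locus, in replicate 1 (blue) and replicate 2 (orange). Values of 0 sit at the bottom. No neighbour at 1 CPM or more shifts by 1.2-fold. Neighbours under that level rest on few counts and differ in both directions, with Gpr1 and Zfp264 lower in replicate 2 and Hrh4 higher.

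The genes listed around the 8 loci differed little where they were well covered. Of 37 listed neighbours 35 were in the files and 22 were at 1 CPM or more, and none of these was 1.2-fold lower or higher in replicate 2. Their median log2 ratio was -0.04, and the furthest from 0 were Mcmbp (0.25) and Bag3 (-0.25), both beside Inpp5f. The neighbours were listed by position, whether or not they are themselves imprinted. Beside Plagl1, Phactr2 had a log2 ratio of -0.18, Ltv1 -0.05 and the splicing factor subunit Sf3b5 0.05. Beside Zdbf2, the elongation factor subunit Eef1b2 stood at 135 ± 0.70 TPM and the adhesion protein Adam23 at 51.1 ± 1.07 (SD, n = 2 each), with log2 ratios of -0.02 and -0.08. Gpr1, a known imprinted neighbour of Zdbf2, was under 1 TPM, at 0.28 and 0.19. Its log2 ratio of -0.61 was further from 0 than that of Zdbf2 but rests on 9 and 6 counts.

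At the other loci the members stood above or among their neighbours. Impact was 2.29-fold above the lipid-binding protein Osbpl1a (log2 ratio 1.19 ± 0.03, SD, n = 2), while Cabyr and Hrh4 were under 1 TPM. Inpp5f lay just below Tial1, an RNA-binding protein at 48.4 ± 2.43 TPM, and above Sec23ip (20.7 ± 3.43) and Mcmbp (11.05 ± 1.61, SD, n = 2 each). Around Gnas, Stx16, a syntaxin, was highest at 27.5 ± 2.64 TPM, followed by Nelfcd (18.9 ± 1.73) and Ctsz (12.9 ± 0.276, SD, n = 2 each). Nespas, the antisense RNA that crosses the upstream part of Gnas, had 13 counts in each library and 0.36 and 0.35 TPM.

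Gnas has 4 main start regions, and in the first quantification nearly all of its TPM came from the start of the stimulatory G protein. Transcripts that start between 174330006 and 174330287 held 95.4% and 94.4% of the TPM of Gnas in replicates 1 and 2. The region at 174327570 to 174328023, where the paternally read exon 1A lies, held 3.75% and 4.55%. The start of the neuroendocrine protein Nesp, known to be read from the maternal copy, held 0.0485% and 0.0780%, and that of the paternally read XL protein 0.00999% and 0.0107%. In the second quantification the exon 1A region held 26.1% and 21.4%, with Gnas-218, a transcript with no coding sequence, at 207 and 126 TPM. The low share of the Nesp and XL starts was seen in both quantifications, at most 0.573%.

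Gnas-208, the transcript with the 45-base exon, led in both libraries and both quantifications. It held 57.2% and 59.2% of the gene's TPM in the first, 58.2 ± 1.36% (SD, n = 2), and 44.7% and 49.1% in the second. The transcripts that skip the exon split differently: Gnas-206 held 30.9% and 29.6% in the first quantification but 1.76% and 2.51% in the second. Gnas-207, which differs from it at this site by the 3 bases printed above, held 2.90% and 2.61% in the first but 26.4% and 24.8% in the second. Gnas-207 and Gnas-218 were named after their values were seen.

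Taken over every Gnas transcript that crosses the site, the long form was steadier. It held 65.7% and 67.3% of the TPM in the first quantification and 71.7% and 72.6% in the second. The short forms together held 34.3% and 32.7%, and 28.3% and 27.4%. Long forms were thus about equally common in the libraries, and the assignment between the short forms with and without the 3 bases depended on the quantification.

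**Figure D4:**
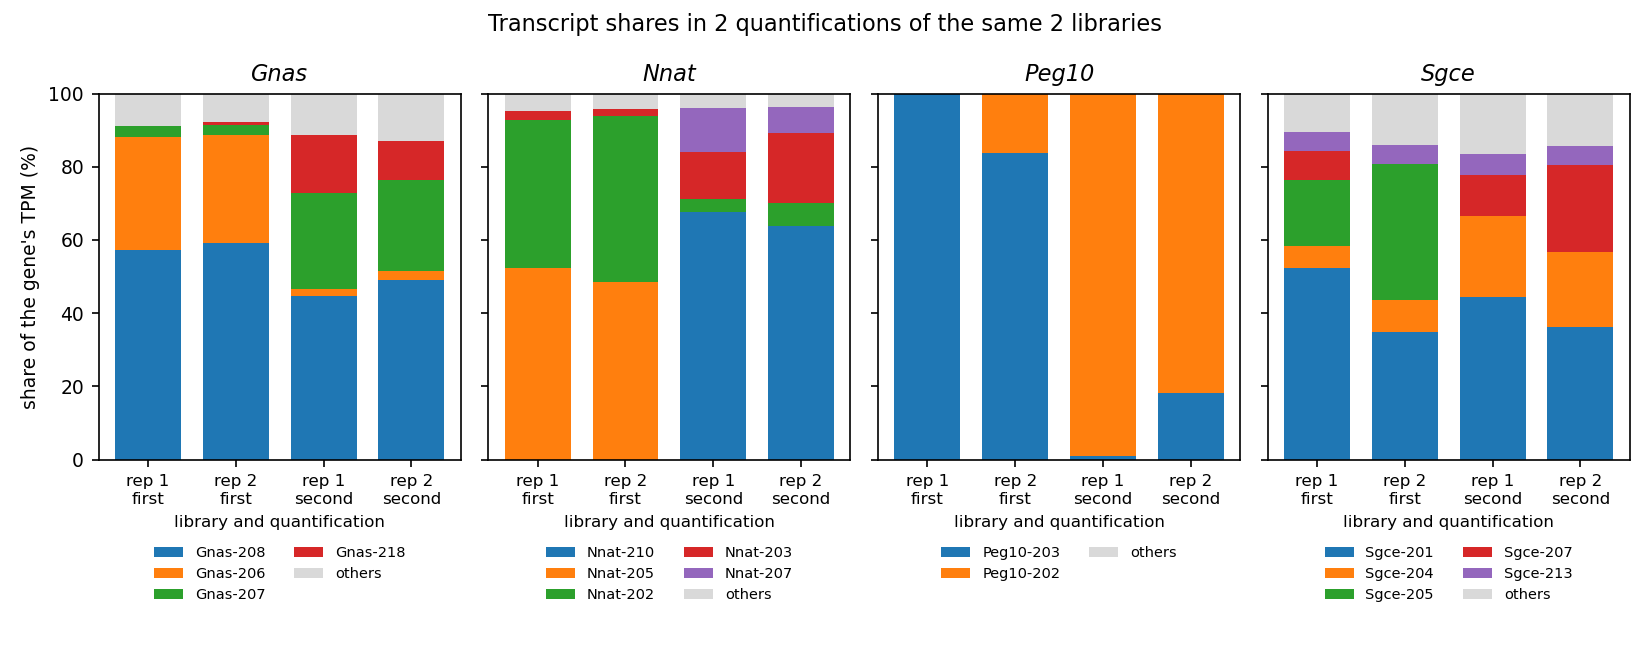
Share of each gene's TPM by transcript for Gnas, Nnat, Peg10 and Sgce, as stacked bars for replicate 1 and 2 in the first and the second quantification. Transcripts under 5% in every bar are pooled in grey. The bars of the same quantification resemble each other more than those of the same library for Gnas, Nnat and Peg10.

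Peg10 was given to Peg10-203 in the first quantification (100% and 83.6% of its TPM) and to Peg10-202 in the second (98.9% and 81.9%). These transcripts are 6567 and 6667 bases long and differ in sequence only by a start that lies 100 bases further upstream in Peg10-202. The annotation gives them different coding parts, the first reading frame (1128 bases) in Peg10-202 and the second (1812 bases) in Peg10-203. The authors' intervals show how little the reads separate them: in replicate 1, Peg10-203 ran from 0.746 to 3.19 TPM and Peg10-202 from near 0 to 2.07. Peg10-201, in which the annotation joins both reading frames across a gap of 2 bases at the slippery motif, was listed at 0 in both libraries of the first quantification. Its upper bounds of 0.701 and 0.662 TPM were those of a transcript that shares almost all of its bases with the others, so the shares say nothing about how often the frame shifts.

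Sgce was the exception among the members, 9 of 10 of which had the same leading transcript in both libraries of the first quantification. Sgce-201 held 52.3% of the gene's TPM in replicate 1 and 34.8% in replicate 2, while Sgce-205 held 18.0% and 37.3%. Their intervals overlapped between the libraries, at 4.34 to 7.41 and 2.49 to 5.54 TPM for Sgce-201 and from near 0 to 2.63 and 1.95 to 5.85 TPM for Sgce-205. Sgce-204 held 6.16% and 8.66%, Sgce-207 7.80% and 0%, and the intron-retaining Sgce-213 5.27% and 5.004%. The second quantification also put Sgce-201 first, at 44.5% and 36.1%, but listed Sgce-205 at 0 and gave Sgce-204 and Sgce-207 larger shares (21.9% and 20.7%, and 11.3% and 23.6%).

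**Figure D5:**
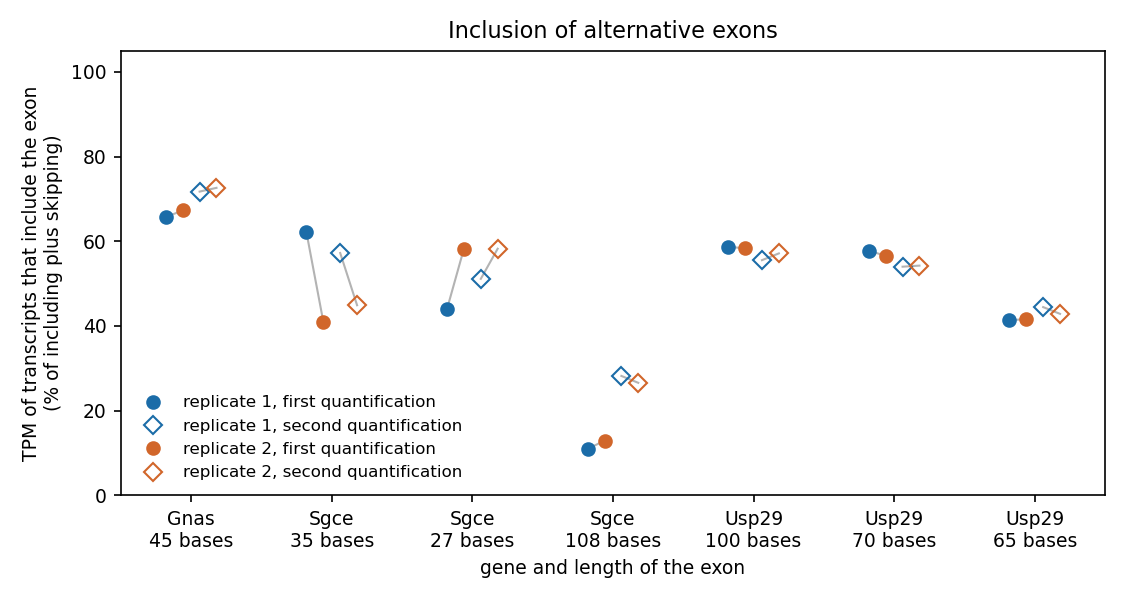
Percent of TPM on transcripts that include an alternative exon, out of those that include or skip it, for 7 exons of Gnas, Sgce and Usp29, with filled points for the first and diamonds for the second quantification. Gnas and Usp29 exons are alike in both libraries, while the 27- and 35-base exons of Sgce shift between them in opposite directions. These Sgce shifts are not independent, since Sgce-201 includes the 35-base exon and skips the 27-base exon.

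The 27- and 35-base exons of Sgce each kept the direction of their shift between the libraries in both quantifications. They are not separate observations. Only Sgce-201 includes the 35-base exon, and it also skips the 27-base exon, so both values largely restate its share. The 27-base exon printed above was included at 44.0% and 58.3% in replicates 1 and 2 of the first quantification and at 51.1% and 58.2% in the second. A 35-base exon near the 3′ end was included at 62.1% and 41.0%, and at 57.2% and 44.9%. With 507 and 529 counts over the whole gene, few reads cover either exon. The exon of 108 bases that marks Sgce-204 was the rarer choice at 10.97% and 12.9%, and 28.2% and 26.6% in the second quantification. It lies at chr6:4730006-4730113 and is printed with 20 bases on each side because it is a coding exon that most Sgce transcripts of these libraries lack:
Sgce-204: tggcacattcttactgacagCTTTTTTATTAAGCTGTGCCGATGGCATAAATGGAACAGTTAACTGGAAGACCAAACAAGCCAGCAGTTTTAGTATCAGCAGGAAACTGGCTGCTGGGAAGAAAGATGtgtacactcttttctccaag

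Nnat was divided between its forms in opposite ways by the quantifications. In the first, forms that skip the middle exon held 54.7% and 50.5% of the TPM of transcripts that cross it, and forms with the 81-base exon held 41.7% and 46.8%. The 27-base version, Nnat-210, was listed at 0. In the second, Nnat-210 held 79.1% and 80.5%, forms with 81 bases held 18.0% and 16.4%, and the skipping form was at or near 0. The forms that led each quantification were lower in replicate 2. Nnat-205 had 124 and 82.6 TPM and Nnat-202 had 96.1 and 77.4 in the first quantification, and Nnat-210 had 337 and 236 in the second. The second quantification put Nnat-202 the other way, at 17.0 and 22.7 TPM.

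At Inpp5f the start inside the gene outweighed the full-length start. Transcripts starting between 128687546 and 128688489, near the 3′ end where the brain variant is known to begin, held 55.7% and 52.3% of the TPM in the first quantification and 48.3% and 43.4% in the second. The full-length start held 26.5% and 25.0%, and 23.9% and 19.5%. In the first quantification full-length Inpp5f-201 stood at 11.1 and 10.3 TPM. The internal Inpp5f-203 had 13.3 and 13.1, the internal Inpp5f-208 11.2 and 9.49 and the intron-retaining Inpp5f-206 6.36 and 6.49. The second gave Inpp5f-203 23.9 and 18.7 TPM, Inpp5f-208 2.68 and 0.0126 and Inpp5f-206 18.2 and 23.7, so the leading transcript differed between the libraries. There the internal Inpp5f-209, annotated as a target of nonsense-mediated decay, held 16.5% and 23.2%, against 0 in the first. In each library and quantification this internal region thus held a larger share than the full-length start.

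The main transcript of Plagl1 was lower in replicate 2, whereas the difference of Zdbf2 could not be placed in 1 transcript. Plagl1-202, which starts in the region of 22 transcripts at 13090691 to 13091013, stood at 6.16 and 2.99 TPM with intervals that did not overlap (5.31 to 6.37 and 2.40 to 3.11). Plagl1-208, which starts further inside the gene, had 2.17 and 0 TPM. Of transcripts with no coding sequence, Plagl1-214 held 8.72% and 5.10% of the TPM and Plagl1-215 0% and 13.5%. The upstream start at 13060504 was listed at 0 in both libraries and both quantifications. For Zdbf2, the transcripts starting at 63273265 to 63273269 had 6.67 and 3.63 TPM, while Zdbf2-201, which starts further inside the gene, had 1.10 and 1.43. Zdbf2-202 led with 52.5% and 48.6% of the TPM, followed by Zdbf2-203 with 33.3% and 23.1%. The intervals of the libraries overlapped for Zdbf2-202 (1.80 to 4.999 and 1.02 to 3.19 TPM) and for Zdbf2-201 (near 0 to 3.18 and 0.574 to 2.81 TPM). In the second quantification Zdbf2-202 held 60.9% and 33.7%, Zdbf2-203 35.1% and 36.3% and Zdbf2-201 3.97% and 30.0%, so the leading transcript differed between the libraries.

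Peg3, Usp29 and Impact had the same leading transcript in both libraries. Peg3-201 held 77.5% and 73.9% of the TPM of Peg3, with 11.3% and 11.3% on the intron-retaining Peg3-204 and 5.67% and 9.40% on Peg3-202 and 5.55% and 5.41% on Peg3-203, both annotated as targets of nonsense-mediated decay. Usp29-204 held 45.5% and 42.0%, Usp29-202 32.0% and 30.0%, Usp29-201, a transcript of a single exon, 7.06% and 11.99%, and the intron-retaining Usp29-206 5.44% and 7.29%. Exons that tell the Usp29 transcripts apart were used alike in the libraries. The 100-base exon was included at 58.7% and 58.3%, the 70-base exon at 57.7% and 56.6% and the 65-base exon at 41.3% and 41.7%. Usp29-204 holds the 100-base exon and Usp29-202 the 65-base exon, so these 2 values are complements of each other. Impact-201 held 58.6% and 56.0%, and the intron-retaining Impact-207 10.4% and 8.86%. Impact-202 and Impact-208 differed in opposite directions, at 14.7% and 6.73% and at 2.81% and 14.8%. The second quantification listed Impact-208 at 0. It still put Impact-201 first, but at 39.8% and 37.1%. Impact-204 held 23.2% and 25.5% there, against 0.290% and 0.557% in the first. In the first quantification the share on intron-retaining transcripts was highest for Inpp5f (18.5 ± 1.05%), Sgce (15.3 ± 0.357%) and Impact (13.3 ± 0.792%, SD, n = 2 each), beside a median of 5.33% over 11578 genes. In the second it was highest for Inpp5f (28.8 ± 4.35%), Nnat (18.6 ± 4.33%) and Sgce (15.7 ± 0.179%, SD, n = 2 each).

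The listed genes of the pathway around the Gnas product were all present. All 20 genes listed for the stimulatory G protein pathway were detected, with a median of 56.4 TPM in both libraries. The G protein beta subunits Gnb1 and Gnb2 (273 ± 16.9 and 245 ± 11.04 TPM) and the regulatory kinase subunit Prkar1a (211 ± 10.4, SD, n = 2 each) were the highest. Gnal, which encodes a close relative of the Gnas protein, had 42.8 and 50.4 TPM, so Gnas stood 14.6-fold above it (log2 ratio 3.86 ± 0.24, SD, n = 2). Adcy1, the calcium-stimulated adenylyl cyclase of the hippocampus, was 1.21-fold higher in replicate 2, at 130 and 157 TPM. None of the 20 was lower by 1.2-fold or more, and Gnas itself had a log2 ratio of -0.10.

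Other imprinted genes were read beside the members to show where these stood. The Dlk1-Dio3 cluster had 6 of 7 genes detected, led by the non-coding RNAs Meg3 (1171 ± 143 TPM) and Rian (458 ± 31.6) and the neighbouring Begain (55.7 ± 1.95, SD, n = 2 each). All 6 of its genes at 1 CPM or more had log2 ratios below 0, and Dlk1 (-1.23) and Dio3 (-1.18), a growth factor-like ligand and a thyroid hormone-inactivating enzyme, were further apart between the libraries than Plagl1. In the Prader-Willi and Angelman region 6 of 9 were detected, led by Snurf, Snhg14 and Snrpn. Snurf lies within Snrpn on the same strand, so reads between these are uncertain, and the second quantification listed Snurf at 0. Of its 7 genes at 1 CPM or more, 1 was lower in replicate 2 (Magel2, -0.65) and 1 higher (Atp10a, 0.33).

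Of 22 further imprinted genes 19 were detected, led by the exchange factor Rasgrf1 at 195 ± 0.0919 TPM, Nap1l5 at 96.0 ± 9.42 and the non-coding Peg13 at 56.3 ± 2.04 (SD, n = 2 each). Of the 19 at 1 CPM or more, 2 were lower in replicate 2, Dcn (-0.57) and Slc38a4 (-0.42), and Ddc was higher (0.69). Over all 3 lists 5 of 32 genes were lower (15.6%) and 2 higher (6.25%), with a median log2 ratio of -0.10. The members, at 3 of 10 lower and a median of -0.14, were thus not shown to stand apart from other imprinted genes in this respect, since the difference itself was not tested.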

How the data were processed

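Total RNA was sequenced in 2 libraries of 1 group. For each library the authors deposited gene and transcript tables in the RSEM layout, whose values are expected counts and TPM per the file headers (the first quantification). The same deposited tables hold a score, the bounds of a TPM interval, taken as the 95% credibility interval of that layout. It describes the posterior mean, so 5 of the 20 listed member values lie outside it. Another deposited table, in the kallisto layout, gives estimated counts and TPM per transcript. It was summed per gene as the second quantification. The genome is mm10 per the labels and the annotation M21 per the notes with the files. The authors' software and the strand setting of the counting are not given in the sources used here.

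Expected counts were rounded to whole numbers. Library ratios used counts plus 0.5 over library sizes scaled by edgeR 4.0.16 (TMM, in R 4.3.3), for genes at a mean of 1 CPM or more, and were called at 1.2-fold. Spike-in and unannotated entries were left out of the library sizes. The replicate spread is the square root of the common dispersion from edgeR, fitted without covariates on genes that passed its expression filter. As 1 library was compared with 1 library, there are no p-values. Transcript shares are percents of the summed TPM of a gene. Starts within 1000 bases of each other were joined, and exon inclusion was taken over annotated transcripts that span the exon. Sequences were read from the annotated transcripts and from RefSeq promoter windows (GRCm38.p6). The ratio formula was tried on simulated libraries with a common spread, scaled by library totals, so the TMM scaling was not tested there. Python 3.11.15, numpy 2.4.6, pandas 2.3.3 and matplotlib 3.10.9 were used, with DESeq2 1.42.0 size factors as an alternative.

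All 10 members are named. So are transcripts at 5% or more of a gene's TPM in either library (at most 4 per gene, or 8 for Gnas, Peg10 and Sgce). In the neighbour, pathway and imprinted gene lists the 3 highest genes are named. In all lists, marker lists included, any gene past 1.2-fold at 1 CPM or more is named. Gnas-207, Gnas-218, Nnat-210, Peg10-201, Inpp5f-209, Impact-204, Zim3, Calcr, Pon1, Bag3, Nespas, Gnal, Hcrt, Rora, Tcf7l2 and Lef1 fall outside these rules and were named after their values were seen. The members and lists were chosen with earlier results of these data known. Of 167 list entries, 2 found no match in the annotation and are not analysed here.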

Additional observations from a re-analysis of the deposited data

How the results depend on the processing

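The call of 3 members past 1.2-fold held under DESeq2 size factors, library totals, spike-in totals, a pseudocount of 5, no minimum, a minimum of 5 CPM and the second quantification, and all 10 members were detected under each alternative except at a minimum of 5 TPM, where 9 were. Levels depend on the scale: the median member stood at 56.3 TPM in the second quantification and 70.6 TPM after rescaling to nuclear protein-coding genes, against 28.5. The share of Gnas-208 was 46.9% in the second quantification, 59.9% of expected counts and 60.4% among protein-coding transcripts, and that of Peg10-203 was 9.59% in the second quantification. The log2 ratio of Peg3 to Usp29 was 2.33 in the second quantification and 3.20 by expected counts, which do not correct for length. By expected counts Peg10 to Sgce was -0.27 and Nnat to Blcap 1.40. No paired analysis was possible because there is 1 group. With 2 libraries no difference can be tested, and at 383 to 780 counts in a library Plagl1, Peg10 and Sgce transcripts are resolved only coarsely.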
